A study of Mus musculus with 42 samples.

Results

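Complex I, NADH:ubiquinone oxidoreductase, is the entry point of electrons from NADH into the mitochondrial respiratory chain, and most of its subunits are encoded by nuclear genes with symbols that start with Nduf. It was followed here in liver RNA of APOE*3-Leiden mice through all protein-coding genes with such a symbol that reached at least 10 counts in at least 10 of the 42 mice. This held for 45 of the 46 protein-coding Nduf genes, among 54446 genes in the count table. The 45 genes were sorted by the place or role of the protein into 7 core subunits of the matrix arm, 9 accessory subunits of the matrix arm, 8 accessory subunits of the proximal membrane arm, 11 accessory subunits of the distal membrane arm, 8 assembly factors and 2 other genes, Ndufa4 and Ndufa4l2.

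All animals were females that carried the human APOE*3-Leiden transgene, with 1 library of polyadenylated liver RNA per mouse. The groups held 10 chow-fed mice, 16 mice fed a Western-type diet (WTD) and 16 fed WTD with atorvastatin, labelled Chow32w, WTD32w and WTD&Atorvastatin32w. The WTD held 15% cocoa butter, 40.5% sucrose and 1% cholesterol, with 0.05% sodium cholate added from week 22, and was given for 3 weeks before the start and for 32 weeks after it. Atorvastatin was mixed into this diet at 3.0 mg/kg/day, raised to 4.5 mg/kg/day at week 5. The WTD-fed mice were 8 to 14 weeks old at the beginning and were matched into 2 groups on age, weight and plasma lipids, whereas the chow-fed mice were a separate reference whose age is not given in the sources used here. All chow-fed mice bear AZ numbers and all WTD-fed mice bear Gen numbers, so a difference between the 2 series of mice and the effect of the diet cannot be told apart.

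Core subunits carry the flavin, the iron-sulphur clusters and the quinone site of the matrix arm, accessory subunits surround and stabilise both arms, and assembly factors help to build the complex but are not part of the finished enzyme. The remaining core subunits, which pump protons in the membrane arm, are encoded by mitochondrial DNA (mt-Nd genes). Liver mitochondria use complex I to oxidise the NADH made in fatty acid oxidation and in the citric acid cycle.

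Expression of nuclear respiratory genes is known to be driven in part by NRF1, the ERR receptors, ETS factors of the GABP type and YY1, and their recognition letters were looked up in the promoters of the members. RefSeq promoter sequences of GRCm38.p6, 250 bases before to 50 bases after a start site, were matched by symbol for 39 of 45 members. The letters searched on both strands were GCGCANGCG for NRF1, AAGGTCA for ERR, CCGGAAG for ETS and AAGATGGC for YY1. None of these holds another one, although NRF1 matches on opposite strands can overlap. At least 1 of the 4 was present in 23 of the 39 members (59.0%) and in 20.2% of 32851 promoters of this length. The NRF1 letters occurred in 10 members (25.6%, against 6.25% of all promoters), those of YY1 in 8 (20.5% against 2.75%), those of ETS in 6 (15.4% against 8.86%) and those of ERR in 3 (7.69% against 4.72%). The 8 YY1 matches all lay after the start site, between 10 and 38 bases from it. Below are the promoters of Ndufs3, the core subunit with the largest fall on WTD, of Ndufs6, an accessory subunit of the matrix arm that fell as well (log2 fold change -0.72 ± 0.10 SE), and of Ndufs4, which was not called on WTD and was the only member called lower with atorvastatin. They run 5′ to 3′ with the matched letters in capitals, which are both ETS matches in Ndufs3, NRF1 then YY1 in Ndufs6, and YY1 in Ndufs4.
Ndufs3, chr2:90904672-90904971, strand −: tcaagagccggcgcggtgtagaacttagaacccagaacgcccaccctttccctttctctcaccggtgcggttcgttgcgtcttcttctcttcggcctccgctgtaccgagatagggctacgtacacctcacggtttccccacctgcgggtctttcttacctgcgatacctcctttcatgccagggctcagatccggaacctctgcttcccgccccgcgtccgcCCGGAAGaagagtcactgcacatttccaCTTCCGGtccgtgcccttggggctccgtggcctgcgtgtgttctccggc
Ndufs6, chr13:73328433-73328732, strand −: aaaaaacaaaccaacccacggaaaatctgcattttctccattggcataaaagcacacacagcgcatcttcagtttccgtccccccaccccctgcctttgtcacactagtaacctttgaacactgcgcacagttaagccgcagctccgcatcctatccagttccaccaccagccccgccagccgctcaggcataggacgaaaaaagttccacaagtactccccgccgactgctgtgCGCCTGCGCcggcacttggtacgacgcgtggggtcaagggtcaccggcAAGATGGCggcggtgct
Ndufs4, chr13:114388045-114388344, strand −: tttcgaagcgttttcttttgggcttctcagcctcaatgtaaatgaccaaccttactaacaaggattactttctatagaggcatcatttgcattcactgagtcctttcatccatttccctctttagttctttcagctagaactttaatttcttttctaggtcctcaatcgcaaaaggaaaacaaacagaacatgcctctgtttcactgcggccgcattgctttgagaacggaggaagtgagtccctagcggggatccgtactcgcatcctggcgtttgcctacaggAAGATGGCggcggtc
A match is a description of the letters and shows no binding, which was not measured.

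Levels were expressed as CPM, the counts of a gene scaled to a common library size with TMM factors, and differences as log2 fold changes of the edgeR quasi-likelihood test over all tested genes, called at an adjusted p (Benjamini-Hochberg) under 0.01. Library totals over genes ran from 15661381 to 36224054 counted read pairs. Most libraries captured weakly expressed genes well, but in 8 libraries (3 chow, 4 WTD, 1 WTD with atorvastatin) more than 20% of the genes at 1 to 2 CPM in their group had no count, and the counts that lead each comparison are also given without them. Hepatocyte markers were abundant in each group, with Alb at medians of 91339 CPM on chow, 48528 CPM on WTD and 83832 CPM with atorvastatin. In whole liver, fewer cells of a type and less RNA per cell cannot be told apart.

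The first question was how the complex I genes stood in the liver after the WTD. In the WTD-fed mice the summed level of the 45 members was lower than on chow, and nearly all subunits took part. The lowest, median and highest sums per mouse were 2856, 3464 and 3842 CPM on chow and 2014, 2281 and 2739 CPM on WTD. With TMM factors no WTD-fed mouse reached the lowest chow-fed mouse, and the median was 34.1% lower. Of the 45 members, 33 fell (73.3%) and 0 rose, where 33.5% of all 15574 tested genes were called, 17.5% higher and 16.0% lower. The median log2 fold change of the members was -0.53, beside 0.03 over all tested genes. Without the 8 libraries poor in weak genes, 34 members fell and 0 rose.

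The size of the fall depended on the scaling, because TMM factors differed between the groups, which had a median factor of 0.887 (chow), 1.10 (WTD) and 0.948 (WTD with atorvastatin). On plain library sizes the median of all tested genes moved to 0.34 and that of the members to -0.22 (log2 ratio of group means, WTD to chow). The members thus stood 0.56 below the median gene on library sizes and 0.56 below it with TMM factors. On library sizes 34 of the 45 members were lower on WTD, against 44 with TMM factors, so the direction of single members with small differences rests on the scaling. Of the 33 members called, 0 turned direction on library sizes, and 10 of the members without a call did. As a share of all gene counts, the members had a lowest, median and highest mouse of 0.2630, 0.3074 and 0.3410% on chow, 0.2336, 0.2513 and 0.2999% on WTD and 0.2004, 0.2390 and 0.2570% with atorvastatin. On this measure the WTD range overlapped with that of chow, and the range with atorvastatin did not.

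**Figure D1:**
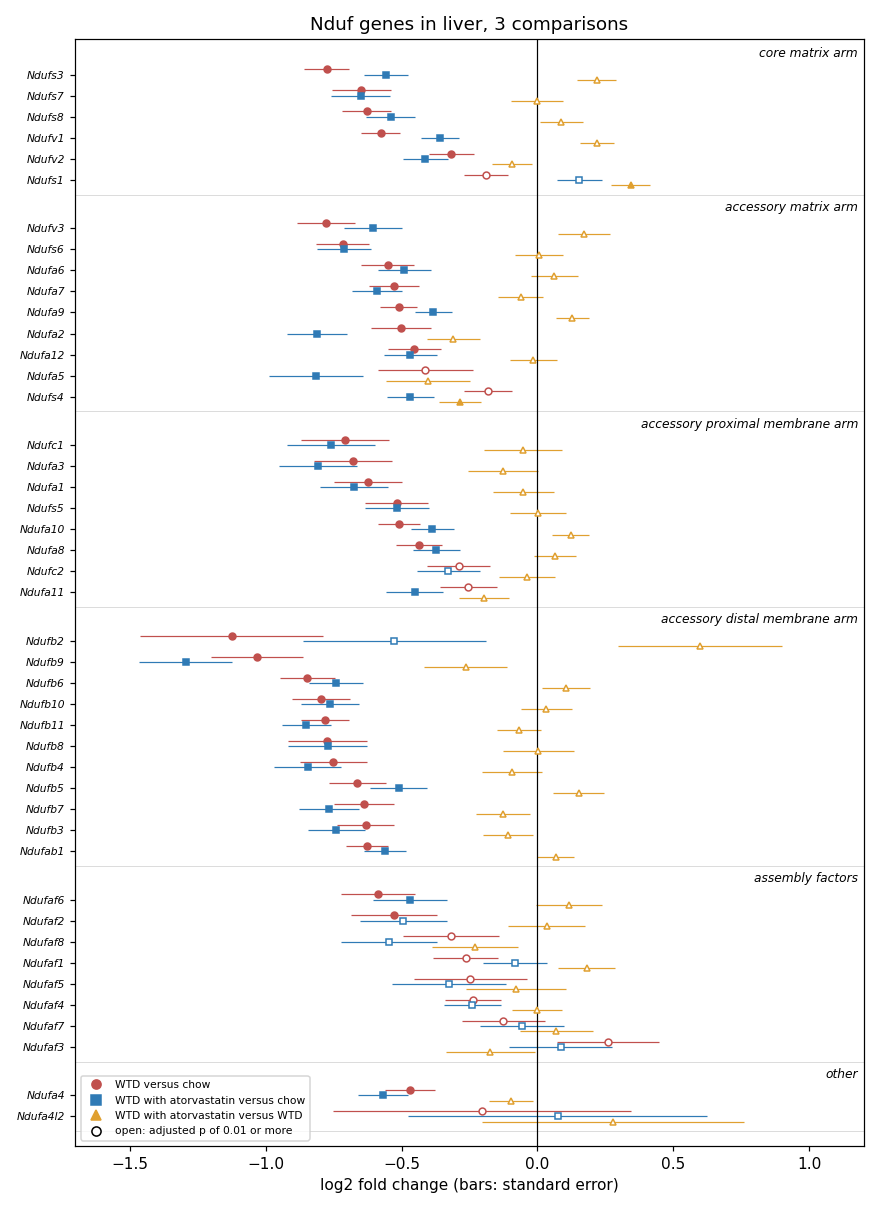
Log2 fold change (x axis) of 44 of the 45 Nduf genes (rows, by role) in the 3 comparisons, with standard errors as bars and filled symbols for an adjusted p under 0.01. Both comparisons with chow lie to the left of 0 for nearly all subunits, and the comparison of WTD with atorvastatin against WTD lies around 0, with filled symbols only for Ndufs1 and Ndufs4.

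Among the 7 core subunits, 6 fell on WTD, with a median log2 fold change of -0.58. Ndufs3 (chr2:90894634-90904827, GRCm38), a subunit close to the quinone site, had 105, 129 and 161 CPM on chow and 60.3, 74.2 and 98.8 CPM on WTD as the lowest, median and highest mouse. The groups did not overlap (log2 fold change -0.78, SE 0.08, adjusted p = 1.81e-11), although 19.9% of its 100-base stretches also occur in Gm12251. Ndufv1, which binds NADH and the flavin, went from 171, 227 and 246 CPM to 116, 147 and 179 CPM, and the ranges met only at their edges (log2 fold change -0.58, SE 0.07, adjusted p = 1.10e-09). Ndufs7, which lies at the quinone pocket, had 51.2, 82.2 and 109 CPM on chow and 27.0, 49.8 and 80.6 CPM on WTD, with ranges that overlapped between the diets (log2 fold change -0.65, SE 0.11, adjusted p = 1.52e-06). The iron-sulphur subunit Ndufs8 had 75.0, 109 and 128 CPM on chow and 56.2, 69.5 and 85.3 CPM on WTD (log2 fold change -0.63, SE 0.09, adjusted p = 5.56e-08). Ndufv2, partner of Ndufv1 in the NADH module, moved less, from 79.7, 101 and 139 CPM to 67.3, 82.6 and 112 CPM (log2 fold change -0.32, SE 0.08, adjusted p = 0.00144).

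Ndufs1 (chr1:63143596-63176833), the largest core subunit and carrier of several iron-sulphur clusters, was the core subunit without a call. Its levels were 77.1, 108 and 128 CPM on chow and 70.5, 95.3 and 135 CPM on WTD, and the ranges overlapped over most of their length (log2 fold change -0.19, SE 0.08, adjusted p = 0.0550). The 95% interval of its difference, -0.35 to -0.03, did not hold the estimates of Ndufs3, Ndufs7, Ndufs8 and Ndufv1, although differences between genes were not tested.

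Of the 28 accessory subunits, 24 fell on WTD. All 11 members of the distal membrane arm fell, with a median of -0.77 and a range from -1.13 (Ndufb2) to -0.63 (Ndufab1, the mitochondrial acyl carrier protein). In the proximal membrane arm 6 of 8 fell, with a median of -0.51, a lowest value of -0.71 in Ndufc1 and a highest of -0.25 in Ndufa11. In the matrix arm 7 of 9 fell, with a median of -0.51, from -0.78 in Ndufv3 to -0.18 in Ndufs4. The 4 accessory subunits without a call were Ndufs4, Ndufa5, Ndufa11 and Ndufc2, and each had a log2 fold change below 0. This holds for edgeR, since limma-voom called all 4 lower (adjusted p = 0.00419, 1.85e-04, 4.61e-04 and 0.00350).

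The largest falls were those of Ndufb2, Ndufb9 and Ndufb6, which all belong to the distal membrane arm. Ndufb6 had 49.1, 59.9 and 101 CPM on chow and 27.8, 34.8 and 48.5 CPM on WTD, without overlap (log2 fold change -0.85, SE 0.10, adjusted p = 4.89e-10). Ndufb9 had 20.9, 30.1 and 49.6 CPM on chow and 7.55, 14.7 and 22.9 CPM on WTD, where 16 of 16 mice were below the chow median (log2 fold change -1.03, SE 0.17, adjusted p = 1.30e-06). Ndufb2 had only 1.06, 4.18 and 10.4 CPM on chow and 0.587, 2.71 and 4.79 CPM on WTD, with wide overlap (log2 fold change -1.13, SE 0.34, adjusted p = 0.00504). This call was lost without the 8 libraries poor in weak genes (log2 fold change -0.31, adjusted p = 0.463) and without any 1 of the chow-fed mice AZ1, AZ2, AZ5 or AZ6 (highest adjusted p = 0.0175). Reads on these genes could be split with a neighbour on the same strand, since 45.5% of the main Ndufb9 transcript and 39.6% of that of Ndufb2 lie outside the spans of Gm49356 and Gm42420, and 54.9% of that of Ndufb8 outside Gm20538. Among the 37 members with no such neighbour and under 1% of their 100-base stretches in another gene, 25 fell, and their median was -0.51.

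In 5 members all WTD-fed mice were below all chow-fed mice, namely Ndufs3, Ndufa9, Ndufab1, Ndufb6 and Ndufb11, which is 11.1% of the members, whereas 2.43% of all tested genes were separated in this direction. On library sizes without TMM factors 0 members were separated, and 1.29% of all tested genes. Ndufb11 had 111, 125 and 154 CPM on chow against 61.0, 72.1 and 101 CPM on WTD (log2 fold change -0.78, SE 0.09, adjusted p = 2.09e-10). Ndufb4 fell from 23.8, 35.5 and 45.6 CPM to 13.7, 21.1 and 33.1 CPM (log2 fold change -0.75, SE 0.12, adjusted p = 1.19e-06), although 33.4% of its 100-base stretches also occur in the pseudogene Ndufb4c. Ndufb4c had 0 counts, but it lies inside the span of Mroh5 on its strand, with no exon base outside that span. Its 0 counts therefore do not show that it took no reads.

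**Figure D2:**
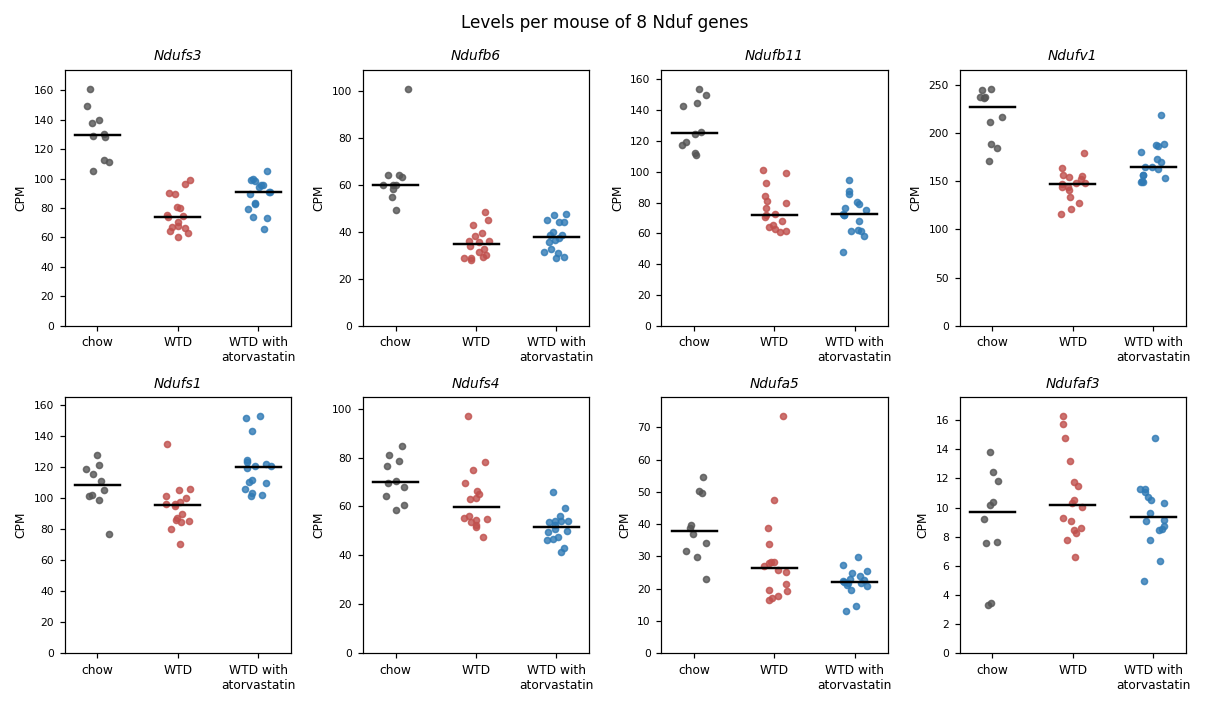
CPM (y axis, from 0) of 8 Nduf genes in each mouse (points) by group, with the median as a line. Ndufs3, Ndufb6 and Ndufb11 on WTD lie below every chow-fed mouse, Ndufs1 has its highest median with atorvastatin, and 1 WTD-fed mouse stands at 73.6 CPM of Ndufa5 and 97.0 CPM of Ndufs4.

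Fewer calls were made among the assembly factors, and whether they differed from the subunits was not tested. Of the 8 Ndufaf genes 2 fell, Ndufaf2 and Ndufaf6 (25.0%, beside 16.0% of all tested genes called lower). The median of the 8 was -0.26, which is smaller than the shift of the median gene between scalings, so that its sign rests on the scaling. The sums of the 8 genes per mouse were 91.4, 139 and 155 CPM on chow and 86.9, 110 and 126 CPM on WTD, which overlapped. Ndufaf6, needed for the quinone module, had 12.1, 20.6 and 26.6 CPM on chow and 8.99, 13.2 and 18.3 CPM on WTD (log2 fold change -0.59, SE 0.14, adjusted p = 3.18e-04). Ndufaf2, a paralogue of the subunit Ndufa12 that acts late in assembly, had 7.84, 17.5 and 20.0 CPM and 5.92, 10.5 and 15.5 CPM (log2 fold change -0.53, SE 0.16, adjusted p = 0.00541), and lost its call without any 1 of AZ4, AZ6, AZ8 or AZ9 (highest adjusted p = 0.0132). Each of the 8 was below every core subunit in counts per length of the main transcript, an approximate measure because counts appear to include introns.

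The other 6 assembly factors gave no call with edgeR, while limma-voom called Ndufaf1 and Ndufaf4 lower (adjusted p = 0.00901 and 0.00127), and Ndufaf4 was also called without the 8 libraries poor in weak genes (adjusted p = 0.00884). Ndufaf1, which works with Ecsit on the membrane arm, had 19.0, 25.8 and 33.0 CPM on chow and 13.5, 22.5 and 30.8 CPM on WTD (log2 fold change -0.26, SE 0.12, adjusted p = 0.0660). Ndufaf4 had 18.4, 22.1 and 27.4 CPM and 14.1, 17.5 and 25.1 CPM (log2 fold change -0.24, SE 0.10, adjusted p = 0.0612), and its partner Ndufaf3 3.29, 9.71 and 13.8 CPM and 6.62, 10.2 and 16.3 CPM (log2 fold change 0.26, SE 0.19, adjusted p = 0.274). Ndufaf3 was thus the only member with a log2 fold change above 0, with a 95% interval of -0.11 to 0.63, and it was below 0 in at least 1 of the 12 alternative settings. Ndufaf5, which hydroxylates Ndufs7, had 3.24, 6.16 and 11.5 CPM and 2.30, 5.95 and 8.41 CPM (log2 fold change -0.25, SE 0.21, adjusted p = 0.356), and its partner Ndufaf8 7.57, 10.3 and 22.5 CPM and 5.10, 8.57 and 13.7 CPM (log2 fold change -0.32, SE 0.18, adjusted p = 0.145). Ndufaf7, a methyltransferase, had 9.00, 20.9 and 27.2 CPM and 8.61, 17.4 and 31.3 CPM (log2 fold change -0.13, SE 0.15, adjusted p = 0.535). All of these ranges overlapped between the diets.

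Assembly factors with other symbols were counted from a list. Of 11 tested on a list of 12, 2 fell (18.2%, near the 16.0% of all tested genes called lower), and the sign of their median, -0.22, rests on the scaling. These were Ecsit, with 34.2, 47.1 and 54.8 CPM on chow and 12.9, 26.9 and 35.3 CPM on WTD (log2 fold change -0.80, SE 0.11, adjusted p = 1.24e-08), and Dmac2, a factor of the distal membrane arm, with 42.2, 60.1 and 77.6 CPM and 18.2, 31.0 and 55.3 CPM (log2 fold change -0.94, SE 0.14, adjusted p = 1.44e-07). Without the 8 libraries poor in weak genes 5 of the list fell, where 2590 of 15877 tested genes were called lower. The nearness to the share of all genes thus depended on these libraries.

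Ndufa4 and Ndufa4l2 are named after complex I but are placed elsewhere. Ndufa4, now known as a subunit of complex IV, had 161, 216 and 235 CPM on chow and 105, 151 and 204 CPM on WTD and fell (log2 fold change -0.47, SE 0.09, adjusted p = 2.78e-05). Ndufa4l2, its hypoxia-inducible paralogue, was the weakest member, at 0.0639, 2.57 and 4.61 CPM and 0, 2.18 and 3.70 CPM (log2 fold change -0.20, SE 0.55, adjusted p = 0.794), and its 95% interval of -1.28 to 0.87 leaves the direction undetermined.

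The second question was whether the complex I genes differed between WTD-fed mice with and without atorvastatin. The sums per mouse of the 45 members were 1854, 2353 and 2828 CPM with atorvastatin, over nearly the same range as on WTD alone, and the ratio of the medians was 1.03. Of the members, 1 rose and 1 fell, together 4.44%, beside 7.10% of all tested genes (4.84% higher and 2.26% lower). These were 754 higher and 352 lower genes, a split that moved to 582 and 479 with RLE scaling, to 694 and 669 with DESeq2 and to 719 and 642 when only both groups were fitted. The median log2 fold change was 0.00, and 22 members lay below 0 and 23 above it. On plain library sizes the medians moved to -0.17 for the members and -0.16 for all tested genes, and 15 of the 38 members never called changed sign between the 12 alternative settings, Ndufs7 and Ndufa4 among them. At an unadjusted p under 0.05 there were 8 of 45 members, beside 3822 of 15574 tested genes. DESeq2 called 3 members, beside 1363 of 15574 tested genes, and limma-voom 6, beside 3118 of 15574. Without the 8 libraries poor in weak genes 1 member remained past the threshold, beside 775 of 15877 tested genes. For 32 of the 33 members that fell on WTD, the upper end of the 95% interval of the atorvastatin difference was below the size of that fall, the exception being Ndufb2. The 33 were chosen by that fall, the same WTD-fed mice enter both values, and the error of the fall was left out. The count is therefore a description and no test of a return to chow levels.

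Ndufs1 was the member that rose. Its levels were 70.5, 95.3 and 135 CPM on WTD and 101, 120 and 153 CPM with atorvastatin, and 16 of 16 treated mice were above the WTD median (log2 fold change 0.34, SE 0.07, adjusted p = 6.67e-04). The call held in all 12 alternative settings and without any single mouse (highest adjusted p = 0.00539). Ndufv1 was next among the core subunits, at 149, 165 and 219 CPM with atorvastatin, also above the WTD median in 16 of 16 mice but short of the threshold (log2 fold change 0.22, SE 0.06, adjusted p = 0.0125). It passed the threshold without any 1 of AZ4, Gen19, Gen20, Gen25, Gen28 or Gen36 (lowest adjusted p = 0.00332). Ndufs3 had 65.9, 90.6 and 105 CPM (log2 fold change 0.22, SE 0.07, adjusted p = 0.0359). Ndufs7, Ndufs8 and Ndufv2 had medians of 50.3, 74.4 and 79.4 CPM with atorvastatin, and log2 fold changes against WTD of 0.00, 0.09 and -0.10.

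Ndufs4 (chr13:114287795-114388258), an accessory subunit of the matrix arm whose loss causes Leigh syndrome, was the member that fell. It had 58.6, 69.9 and 84.6 CPM on chow, 47.6, 59.6 and 97.0 CPM on WTD and 41.2, 51.5 and 65.7 CPM with atorvastatin, with overlap between neighbouring groups. The fold change against WTD was past the threshold (log2 fold change -0.28, SE 0.08, adjusted p = 0.00865), and that on WTD against chow was not (log2 fold change -0.18, SE 0.09, adjusted p = 0.0867). The atorvastatin call was lost without the 8 libraries poor in weak genes (adjusted p = 0.0210), without the filter on low counts (adjusted p = 0.0123) and in 20 of 42 fits that each left out 1 mouse, all of them WTD-fed with or without treatment (highest adjusted p = 0.0218, without Gen11).

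Gen11, a WTD-fed mouse among the 8 libraries poor in weak genes, had the highest Ndufs4, Ndufa5 and Ndufa11 levels of all mice. Ndufa5, a matrix arm subunit, had 16.5, 26.4 and 73.6 CPM on WTD and 13.2, 22.2 and 29.7 CPM with atorvastatin, with overlapping ranges (log2 fold change -0.40, SE 0.15, adjusted p = 0.0777). Without Gen11 this difference was -0.25 (adjusted p = 0.223). Without Gen11 the fall of Ndufa5 from chow to WTD was called (log2 fold change -0.56, adjusted p = 0.00101, against -0.41 and 0.0498 with it), as was that of Ndufa11 (log2 fold change -0.32, adjusted p = 0.00537, against -0.25 and 0.0438). Ndufa2, another small matrix arm subunit, had 47.9, 61.5 and 80.8 CPM on chow, 30.8, 43.0 and 69.5 CPM on WTD and 20.9, 36.1 and 47.0 CPM with atorvastatin (log2 fold change -0.31, SE 0.10, adjusted p = 0.0265 against WTD). Of the matrix arm accessory subunits, 5 of 9 lay below 0 in this comparison.

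At the other end Ndufb2 had 1.61, 3.46 and 6.80 CPM with atorvastatin (log2 fold change 0.60, SE 0.30, adjusted p = 0.209) and Ndufa4l2 0, 2.25 and 3.63 CPM (log2 fold change 0.28, SE 0.48, adjusted p = 0.804), and both ranges covered most of the WTD range. The Ndufaf assembly factors gave no call, with log2 fold changes between -0.23 in Ndufaf8 and 0.18 in Ndufaf1 and sums of 98.0, 110 and 130 CPM. Their medians with atorvastatin were 24.0 CPM for Ndufaf1, 11.7 CPM for Ndufaf2, 9.36 CPM for Ndufaf3, 19.5 CPM for Ndufaf4, 5.53 CPM for Ndufaf5, 14.0 CPM for Ndufaf6, 18.5 CPM for Ndufaf7 and 8.22 CPM for Ndufaf8. Of the 11 other assembly factors 1 rose, Ecsit, at 26.7, 34.2 and 48.1 CPM (log2 fold change 0.39, SE 0.10, adjusted p = 0.00315). Ndufa4 had 101, 136 and 176 CPM, with a median below that on WTD and overlapping ranges (log2 fold change -0.10, SE 0.08, adjusted p = 0.526).

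**Figure D3:**
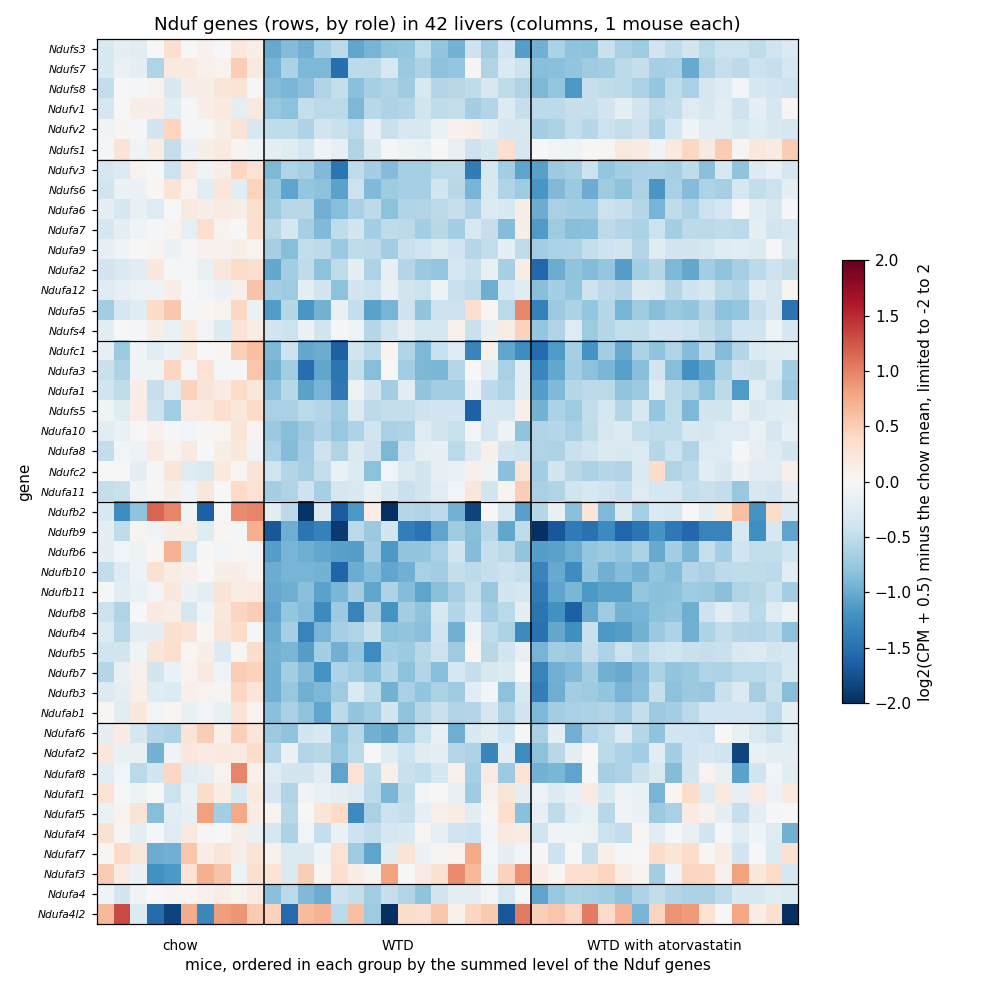
Log2(CPM + 0.5) of 44 of the 45 Nduf genes (rows, by role) in each of the 42 mice (columns), relative to the chow mean of the gene and limited to 2 in both directions. Blue covers most subunit rows in both WTD-fed groups, while the rows of Ndufs1, of the assembly factors and of Ndufa4l2 are mixed.

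The third comparison set the treated mice against chow. Of the 45 members 34 fell and 0 rose (75.6%, beside 25.0% of all tested genes, 14.2% higher and 10.7% lower), with a median of -0.53. Without the 8 libraries poor in weak genes 35 fell. The highest treated mouse, at 2828 CPM over all members, was below the lowest chow-fed mouse at 2856 CPM. In 4 members the groups did not overlap, Ndufa2, Ndufb3, Ndufb6 and Ndufb11, which is 8.89% of the members beside 1.50% of all tested genes, and on library sizes this held for Ndufb11 alone. This comparison uses the same chow-fed mice as the first. Side by side, 31 members were called lower in both, Ndufb2 and Ndufaf2 in the first one alone, Ndufs4, Ndufa5 and Ndufa11 in this one alone, and 9 in neither. Of all tested genes 16.0% were called lower in the first and 10.7% in this one, and the share lower in both is not given here. The shared chow-fed mice favour such an overlap for any genes, so the 31 are a description only.

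Among the core subunits 6 of 7 were lower than on chow, with log2 fold changes from -0.65 (Ndufs7, adjusted p = 2.56e-06) to -0.36 (Ndufv1, adjusted p = 4.80e-05), and Ndufs1 lay above 0 without a call (log2 fold change 0.15, SE 0.08, adjusted p = 0.148). All 9 accessory subunits of the matrix arm, 7 of 8 in the proximal and 10 of 11 in the distal membrane arm fell. The largest falls were those of Ndufb9, at 6.26, 11.2 and 23.8 CPM with atorvastatin (log2 fold change -1.29, SE 0.17, adjusted p = 1.79e-08), Ndufb11, at 48.1, 72.5 and 94.7 CPM (log2 fold change -0.85, SE 0.09, adjusted p = 4.58e-11), and Ndufb4, at 12.2, 20.3 and 25.8 CPM (log2 fold change -0.84, SE 0.12, adjusted p = 2.01e-07). The accessory subunits without a call were Ndufc2 (log2 fold change -0.33, SE 0.12, adjusted p = 0.0231) and Ndufb2 (log2 fold change -0.53, SE 0.34, adjusted p = 0.237). Of the assembly factors, Ndufaf6 fell (log2 fold change -0.47, SE 0.14, adjusted p = 0.00493), a call that was lost without the filter on low counts and without any 1 of AZ1, AZ3, AZ6 or AZ8 (highest adjusted p = 0.0183), while Ndufaf2 and Ndufaf8 lay just above the threshold (log2 fold change -0.49, SE 0.16, adjusted p = 0.0122, and log2 fold change -0.55, SE 0.18, adjusted p = 0.0122). Ndufaf3 (log2 fold change 0.09, SE 0.19, adjusted p = 0.770) and Ndufa4l2 (log2 fold change 0.07, SE 0.55, adjusted p = 0.938) again lay near 0, and Ndufa4 fell (log2 fold change -0.57, SE 0.09, adjusted p = 1.58e-06).

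The mitochondrially encoded subunits, counted in the same libraries, were listed beside the nuclear ones. The sums of the 7 mt-Nd genes were 13311, 14652 and 18497 CPM on chow, 8316, 11270 and 17504 CPM on WTD and 12788, 15924 and 20173 CPM with atorvastatin. The highest sum on WTD was that of Gen20, with Gen19 next at 13890 CPM. On WTD 4 of 7 fell (median log2 fold change -0.48), and with atorvastatin 4 rose against WTD (median 0.36) where the nuclear members had a median of 0.00. The 4 that rose were mt-Nd1 (log2 fold change 0.34, SE 0.07, adjusted p = 2.23e-04), mt-Nd2 (log2 fold change 0.44, SE 0.08, adjusted p = 7.53e-05), mt-Nd4 (log2 fold change 0.39, SE 0.07, adjusted p = 1.75e-04) and mt-Nd5 (log2 fold change 0.56, SE 0.10, adjusted p = 1.18e-04). Against chow, mt-Nd5 was higher with atorvastatin (log2 fold change 0.45, SE 0.12, adjusted p = 0.00173) and mt-Nd3 lower (log2 fold change -1.21, SE 0.35, adjusted p = 0.00485). The ratio of the mitochondrial to the nuclear sum, which does not depend on library scaling, was 3.46, 4.27 and 6.48 on chow, 3.14, 4.94 and 6.55 on WTD and 5.44, 6.37 and 8.28 with atorvastatin. Its ranges overlapped between all groups, and differences in the ratio were not tested. In these poly(A)-selected libraries mt-Nd3, mt-Nd4l and mt-Nd6 had group medians of only 0.402 to 21.4 CPM, so the mt-Nd sums rest on mt-Nd1, mt-Nd2, mt-Nd4 and mt-Nd5.

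**Figure D4:**
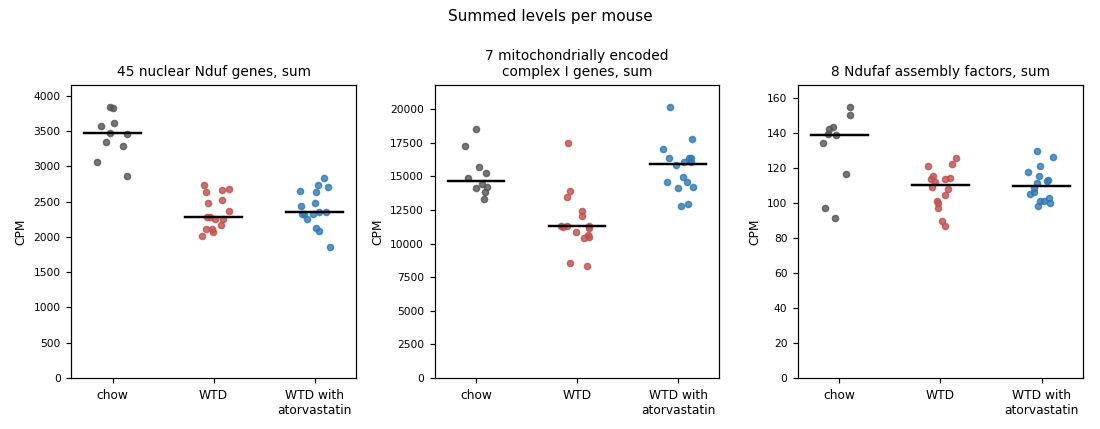
Summed CPM per mouse (points, y axes from 0, median as a line) of the 45 nuclear Nduf genes, the 7 mt-Nd genes and the 8 Ndufaf assembly factors by group. With TMM factors the nuclear sums of both WTD-fed groups lie below all chow-fed mice, whereas the mt-Nd median with atorvastatin, 15924 CPM, is above that on WTD, 11270 CPM.

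The nuclear genes of the other respiratory complexes were lower on WTD as well. Of complex II 3 of 4 genes fell (median -0.37), of complex III 9 of 9 (median -0.59), of complex IV 9 of 9 (median -0.55) and of complex V 14 of 15 (median -0.56), beside 30 of the 35 complex I subunits (median -0.63). By smallest p, Sdhb, Uqcrc1, Cox5b and Atp5g1 came first in their complexes, with log2 fold changes of -0.72, -0.69, -0.76 and -0.76. With atorvastatin against WTD, 1 gene of complex II (Sdha, 0.28) and 1 of complex III (Uqcrc1, 0.30) rose. Of complexes IV and V, edgeR called 0 and 0 genes, DESeq2 0 and 0, and limma-voom 1 and 3, beside 3118 of 15574 tested genes with limma-voom. An unadjusted p under 0.05 in edgeR was found for 1 of 9 and 5 of 15 genes, beside 3822 of 15574 tested genes. Against chow the treated mice were lower in 2, 9, 9 and 12 genes of complexes II to V.

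Of 15 other mitochondrial proteins, chosen to stand for mitochondrial content, 6 fell and 1 rose on WTD. Together these are 46.7%, beside 33.5% of all tested genes (17.5% higher and 16.0% lower). The median of the 15 was -0.14, which is smaller than the shift of the median gene between scalings, so its sign rests on the scaling. Phb2, a prohibitin, fell (log2 fold change -0.50, SE 0.07, adjusted p = 2.50e-08), Tomm20, an import receptor, rose (log2 fold change 0.45, SE 0.09, adjusted p = 6.90e-05), and Cs, citrate synthase, had 129, 163 and 217 CPM on chow and 150, 181 and 228 CPM on WTD (log2 fold change 0.14, SE 0.10, adjusted p = 0.253). With atorvastatin Cs was the 1 gene of this list called against WTD, where it rose (log2 fold change 0.34, SE 0.09, adjusted p = 0.00474). That is 6.67% of the list, beside 7.10% of all tested genes. Among 15 regulators of respiratory genes 2 fell and 1 rose on WTD (20.0%, below the 33.5% of all tested genes called). Esrrg, an ERR receptor, had 9.65, 19.1 and 25.1 CPM on chow and 4.18, 6.44 and 17.2 CPM on WTD (log2 fold change -1.31, SE 0.20, adjusted p = 3.67e-07), Ppara, which drives fatty acid oxidation, fell (log2 fold change -0.62, SE 0.17, adjusted p = 0.00269), and Hif1a rose from low counts (log2 fold change 1.39, SE 0.44, adjusted p = 0.00791). With atorvastatin against WTD, 1 of these 15 regulators was called (6.67%, beside 7.10% of all tested genes). This was Yy1, which rose (log2 fold change 0.28, SE 0.07, adjusted p = 0.00393), and its part in the levels of the members was not tested.

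**Figure D5:**
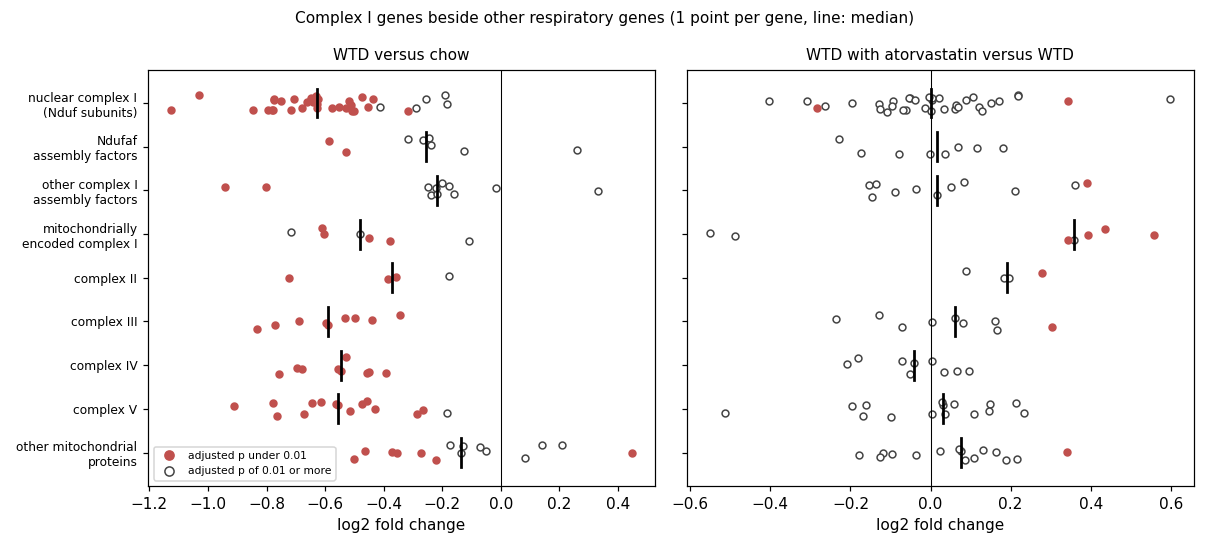
Log2 fold change (x axes) of each gene (points, filled with an adjusted p under 0.01) of complex I, its assembly factors, complexes II to V and other mitochondrial proteins, on WTD against chow (left) and with atorvastatin against WTD (right), with the median as a line. On the left the medians of the subunit lists lie between -0.63 and -0.37, and on the right the mt-Nd genes have a median of 0.36 and the Nduf subunits of 0.00.

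Markers of liver cell types moved with the diet in the same samples. The summed level of 7 hepatocyte markers was 107130, 123628 and 160207 CPM on chow, 52511, 67070 and 105556 CPM on WTD and 62366, 107225 and 129656 CPM with atorvastatin. On WTD 7 of 7 fell (median log2 fold change -0.90), and with atorvastatin 5 of 7 rose against WTD (median 0.47). The highest hepatocyte sum on WTD was that of Gen20, with Gen19 next at 73099 CPM. Gen20 also had the lowest WTD sums of the macrophage and of the stellate cell markers given below. Macrophage markers summed to 197, 296 and 392 CPM on chow, 1011, 1186 and 1448 CPM on WTD and 772, 964 and 1211 CPM with atorvastatin (7 of 8 rose on WTD). With atorvastatin against WTD single macrophage markers went both ways, since 3 fell and 1 rose, with log2 fold changes from -0.97 (Trem2) to 0.62 (Clec4f). For stellate cells and fibroblasts the sums were 391, 509 and 644, 1086, 2088 and 2515 and 990, 1220 and 2413 CPM (5 of 8 rose on WTD). The lowest log2 fold change of this list on WTD was -0.65 (Des). With atorvastatin against WTD 3 of the list fell and 1 rose, with log2 fold changes from -1.36 (Lum) to 0.47 (Reln). Of the cholangiocyte markers 4 of 4 rose on WTD (median log2 fold change 1.85), with median sums of 23.4 CPM (chow), 76.3 CPM (WTD) and 46.4 CPM (WTD with atorvastatin). Endothelial markers had median sums of 259, 215 and 252 CPM in the same order. Single endothelial markers went both ways, since 1 of 5 rose and 2 fell on WTD, with log2 fold changes from -1.20 (Clec4g) to 1.56 (Lyve1). Of the neutrophil markers S100a8 and S100a9 rose on WTD (median log2 fold change 1.78), and the summed level went from a median of 2.56 CPM to 8.18 CPM, while the defining markers Ly6g and Mpo had a median of 0 counts in every group. Of the T cell and B cell markers 0 were called by edgeR on WTD, with median sums between 5.51 and 12.6 CPM. An unadjusted p under 0.05 was found for 0 of 4 and 1 of 4, beside 7795 of 15574 tested genes. The part of these cell types in the levels of the complex I genes was not tested.

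Per length of the main transcript, the members spanned more than 2 orders of size on chow, as CPM per kilobase of transcript (FPKM, mean ± SD of 10 mice). Ndufa4 was highest at 344 ± 34.4 FPKM, followed by the accessory subunits Ndufb10 at 225 ± 33.6 and Ndufa6 at 219 ± 32.9 FPKM, which differed from each other by less than their SD. The 7 core subunits had a median of 109 FPKM (lowest 41.7) and the 8 assembly factors one of 13.0 FPKM (lowest 5.76, highest 23.6). The ranges of these 2 groups did not overlap. Counts appear to include introns while the transcript lengths do not, so the order of genes by FPKM is approximate. At the low end stood Ndufaf4 at 6.11 ± 0.760, Ndufaf3 at 6.04 ± 2.39, Ndufaf5 at 5.76 ± 2.34 and Ndufa4l2 at 2.23 ± 1.66 FPKM, of which the first 3 lay within 1 SD of each other.

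At the edge of the selection, Ndufa4l2 reached 10 counts in 35 mice and all other members in 42. Ndufa13, the one protein-coding Nduf gene left out, had 0 counts in every mouse, and it lies (chr8:69894180-69902558) on the same strand inside the span of Yjefn3, with no exon base outside that span. Nested genes were generally empty in this table, since 240 of 241 protein-coding genes inside the span of another gene on their strand, without a shared exon base, had 0 counts in all mice. Ndufb1-ps, which the annotation does not class as protein-coding, had medians of 26.4 CPM on chow, 16.5 CPM on WTD and 15.8 CPM with atorvastatin, and fell on WTD (log2 fold change -0.62, SE 0.14, adjusted p = 2.81e-04).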

How the data were processed

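Liver RNA of 42 mice was measured by strand-specific sequencing of polyadenylated RNA. The deposited unit is the count of read pairs per gene, which the authors obtained after trimming (Trimmomatic), alignment to GRCm38 with STAR 2.5 and counting with HTSeq-count 0.6.1p1, without normalization. The annotation was GENCODE vM19 per the methods. The table of all mice was checked to be identical to the 42 single tables. Of all counted read pairs, 5.95% on average were ambiguous between genes, 2.28% were in no gene and 4.68% aligned to several places, and these lines entered no total. Since 240 of 241 protein-coding genes nested in another gene on their strand without a shared exon base were empty, counts appear to cover whole gene spans, introns included, so that reads in a shared span are lost to both genes. Positions and lengths came from GENCODE vM21 (GRCm38), which held 54409 of 54446 identifiers.

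Groups followed the treatment label of each mouse. Genes were filtered with filterByExpr (minimum count 10, 15574 genes left), scaled by TMM and tested in edgeR 4.0.16 (R 4.3.3, legacy quasi-likelihood method, robust estimation) with all 42 mice in 1 fit, without covariates, and p values were adjusted over all tested genes and called under 0.01. The study's methods name DESeq2 for this step, and it was run as an alternative. Standard errors were derived from the F statistic, and 95% intervals are the estimate ± 1.96 SE without adjustment. FPKM divide CPM by the length of the main transcript. Depth limits members with few counts, and intervals cover the spread between mice, which were separate animals.

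The members and gene lists were chosen with earlier results of these data known. Full values are given for the core subunits, the Ndufaf genes, Ndufa4, Ndufa4l2 and the 3 largest and 3 smallest fold changes per comparison, and of other lists at most the 3 genes with the smallest p per comparison, while mt-Nd1 with atorvastatin, Cs on WTD and Ndufc2 were added after their values were seen. Alternatives were DESeq2 1.42.0, limma-voom (3.58.1) with quality weights, RLE and upper-quartile scaling, no filter, a minimum of 10 counts in each mouse, non-robust estimation, removal of the 20 most abundant genes, a fit of both compared groups alone, a threshold of 0.05, leaving out the libraries poor in weak genes, leaving out each mouse and, added after the data were seen, edgeR without the legacy method and the direction of single members on library sizes without TMM factors. The test was checked on simulated data with 15304 genes, where 120 of 194 altered genes were recovered for WTD against chow (beside 1 unaltered gene) and 57 of 97 for atorvastatin against WTD (beside 0). Each altered gene was moved by a log2 fold change of 1, up or down at random. The check therefore does not cover smaller changes, such as the member median of -0.53 on WTD, or the dependence on scaling. Promoter sequences were taken from RefSeq (GRCm38.p6). Tables and figures were made with Python 3.11.15, pandas 2.3.3 and matplotlib 3.10.9. The values of 1 core subunit are not reported here, although it is part of the counts, medians and sums. Protein levels and complex I activity were not analysed here.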

Additional observations from a re-analysis of the deposited data

Results flagged for a closer look

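Chow was the only group small enough for a check of single mice within a group (Dixon's test at 95%), which was run on 45 members and on 2 sums. In 7 of these 47 values 1 mouse stood apart. A single such test flags about 1 in 20 by chance, but the 47 values come from the same mice and are not independent. Whether 7 is more than chance was therefore not tested. Ndufa12 was highest in AZ6, at 63.2 CPM with the next mouse at 46.3 CPM. Ndufa4 was lowest in AZ10, at 161 CPM with the next mouse at 197 CPM. Ndufa8 was lowest in AZ4, at 85.7 CPM with the next mouse at 112 CPM. Ndufaf2 was lowest in AZ5, at 7.84 CPM with the next mouse at 14.0 CPM. Ndufaf8 was highest in AZ1, at 22.5 CPM with the next mouse at 15.0 CPM. Ndufb6 was highest in AZ2, at 101 CPM with the next mouse at 64.4 CPM. Ndufb9 was highest in AZ6, at 49.6 CPM with the next mouse at 32.6 CPM. AZ2, AZ5 and AZ6 are chow-fed mice among the libraries poor in weak genes. The part of this in the single values was not tested.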

How the results depend on the processing

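Over 12 alternative settings the members called numbered 31 to 38 for WTD against chow and 33 to 37 for WTD with atorvastatin against chow, all lower, and 31 to 35 and 33 to 36 when each mouse was left out. The median log2 fold change of the members ranged from -0.62 to -0.49, -0.04 to 0.04 and -0.56 to -0.51 in the 3 comparisons. For WTD with atorvastatin against WTD, where 2 members were called, the count was 6 with limma-voom, 1 without a filter, 5 at an adjusted p under 0.05, 1 without the libraries poor in weak genes, and 1 to 3 when each mouse was left out, and the cause was not tested. The ratio of the median sums of the members on library sizes without TMM factors was 0.818 for WTD to chow and 0.777 for WTD with atorvastatin to chow, against 0.659 and 0.679 with them, by the construction of the factors. Of the 39, 7 and 37 members called in any setting, 0 changed direction among these 12 settings, whereas 1, 15 and 3 of those never called did. On library sizes without TMM factors, which is not among the 12, 10, 16 and 2 members turned, none of them called with edgeR. Over all genes, limma-voom called 3118 for WTD with atorvastatin against WTD where edgeR called 1106, and the share called higher moved from 754 of 1106 to 694 of 1363 with DESeq2 and to 582 of 1061 with RLE scaling. Without the WTD-fed mouse Gen20, edgeR called 1575 of 15511 tested genes in this comparison. No paired analysis was possible because each mouse was a separate animal in 1 group and the label numbers only name mice. Weak members such as Ndufa4l2, Ndufb2 and Ndufaf5 are limited by depth.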
